A study of Mus musculus with 32 samples.

Results

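The genes described here are the semaphorins, the plexins and the neuropilins: a family of guidance ligands and the receptors that bind them. Members were taken by name, as every gene of the deposited tables whose symbol marks it as a semaphorin of class 3 to 7, a plexin of subfamily A to D, or neuropilin 1 or 2. This gave 31 of 23284 genes, of which 20 encode semaphorins (7 of class 3, 6 of class 4, 2 of class 5, 4 of class 6 and 1 of class 7), 9 encode plexins and 2 encode neuropilins.

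RNA was sequenced from 2 kinds of mouse sample. The lesion set came from the brachiocephalic artery, a site of atherosclerotic plaque, and compared 4 Oct4 -/- animals (KO) with 4 wild-type animals (WT), all of strain C57BL/6 and all kept for 18 weeks on Western diet. The culture set came from primary aortic smooth muscle cells of C57BL/6 background, with 1 line that was wild type and 1 that was Oct4 -/-. Each line was given vehicle or POVPC, an oxidized phospholipid found in plaques, and was kept under normoxia or under hypoxia of 1% oxygen, which makes 8 groups of 3 libraries. Oct4, encoded by Pou5f1, is a pluripotency factor, and the study asked what its loss does in smooth muscle cells. In the published study the deletion was conditional, made in smooth muscle cells by a tamoxifen-inducible Cre under the Myh11 promoter in animals that all lacked Apoe, so lesion tissue labelled Oct4 -/- keeps cells with an intact gene. The labels used here state only the genotype, strain and diet. Because each genotype in culture is 1 line, a difference between the lines cannot be told apart from a difference between the genotypes, and the p-values there measure the spread among libraries of 1 line.

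Semaphorins are secreted or membrane-bound proteins that steer growing axons, vessels and migrating cells, mostly by making the cell that senses them pull back its cytoskeleton. Plexins are the signalling receptors, and their cytoplasmic part acts on small GTPases that control adhesion and the cytoskeleton. Most secreted class 3 semaphorins cannot bind a plexin tightly on their own and need a neuropilin as co-receptor, and neuropilins also bind VEGF family ligands, which is why the family is studied in vessels. In the artery wall, class 3 semaphorins and their receptors pattern vessels during development, and semaphorins of several classes act on macrophages and endothelial cells.

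The stretch upstream of a start site is shown for 4 members whose levels under hypoxia carry the results below: Nrp2 and Plxnd1, which fell in all 4 hypoxia comparisons, Sema4g, which moved in opposite directions in the 2 lines, and Sema3a, which fell without a match to the motif in this window. Each is the 250 bases before the RefSeq start site, read 5′ to 3′ on the gene's strand, from build GRCm38.p6. Capitals mark the letters ACGTG or GCGTG on either strand (CACGT or CACGC as read), the core that hypoxia-inducible factors bind; a palindromic E-box holds ACGTG on both strands, so the motif overlaps that of other factors.

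Nrp2, chr1:62703067-62703316, + strand: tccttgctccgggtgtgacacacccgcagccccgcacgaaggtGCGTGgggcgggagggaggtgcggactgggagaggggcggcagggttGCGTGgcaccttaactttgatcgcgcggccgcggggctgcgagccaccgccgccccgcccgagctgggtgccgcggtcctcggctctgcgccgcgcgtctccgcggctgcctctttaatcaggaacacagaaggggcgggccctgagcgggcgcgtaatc
Plxnd1, chr6:115995006-115995255, - strand: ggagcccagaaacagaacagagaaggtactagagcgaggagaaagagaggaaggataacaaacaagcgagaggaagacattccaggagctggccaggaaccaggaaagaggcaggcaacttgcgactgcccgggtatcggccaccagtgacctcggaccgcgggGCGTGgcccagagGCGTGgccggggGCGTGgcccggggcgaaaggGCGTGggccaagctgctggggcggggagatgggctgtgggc
Sema4g, chr19:44989094-44989343, + strand: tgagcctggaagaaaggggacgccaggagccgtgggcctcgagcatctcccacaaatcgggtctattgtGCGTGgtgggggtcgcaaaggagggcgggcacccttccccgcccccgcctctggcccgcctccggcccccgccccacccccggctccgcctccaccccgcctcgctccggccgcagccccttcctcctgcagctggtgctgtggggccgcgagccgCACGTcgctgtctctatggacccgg
Sema3a, chr5:13396534-13396783, + strand: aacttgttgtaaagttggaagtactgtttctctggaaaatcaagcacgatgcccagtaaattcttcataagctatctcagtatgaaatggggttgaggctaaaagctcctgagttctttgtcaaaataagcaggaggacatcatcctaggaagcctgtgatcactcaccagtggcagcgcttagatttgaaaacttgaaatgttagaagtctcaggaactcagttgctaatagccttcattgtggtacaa

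The window of Plxnd1 holds 4 matches, those of Nrp2 and Sema4g hold 2 each, and that of Sema3a holds 0. Of 32851 windows of this length in the RefSeq table, 38.6% hold at least 1 match, 16.7% at least 2 and 2.58% at least 4. A window was found for 26 members, and at least 1 match was found for 16 of these 26. Over the 37 windows of these members (some have several start sites), 17 (45.9%) held a match, against the 38.6% of all windows. Members that fell under hypoxia occur with it and without it. Windows were not found for Plxna1, Plxna4, Sema3b, Sema3f and Sema6a.

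Levels are CPM, the usual scaling of counts to library size, with library sizes adjusted by TMM. To compare genes with each other, CPM was divided by exon length in kilobases (RPKM). Changes are on the log2 scale, each ± its standard error, from edgeR's quasi-likelihood test, and FDR is its Benjamini-Hochberg adjusted p over all genes tested. A gene rose or fell where its FDR was under 0.05. Lesion libraries held 6526099 to 11137414 fragments and culture libraries 8063121 to 30231799 reads, so that 3 counts equal 0.269 to 0.46 CPM in a lesion library and 0.0992 to 0.372 CPM in a cultured one, a limit that covers counting error only. The filter on low counts kept 30 members in lesions (all but Sema5b) and 28 in culture (all but Sema3g, Sema5b and Sema7a), and the counts of members below describe those kept.

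Pou5f1 had 0 to 3 counts in every lesion library and 0 to 2 in every culture library, in both genotypes, so it does not check the labels. In lesions KO animal 4 stood apart from the others on the first principal component and WT animal 1 on the second. Contractile smooth muscle RNA in the cultured cells differed by gene. Myh11, the smooth muscle myosin, was at 4.81 to 5.58 CPM in WT cells given vehicle in normoxia. In the other 3 normoxia groups it was at 0.0398 to 2.25 CPM. Acta2, smooth muscle actin, was at 233 to 280 CPM and 42.8 to 66.7 CPM in the same order. Smtn, another contractile gene, was at 34.6 to 37.9 CPM and 64.3 to 116 CPM. Dcn, a fibroblast proteoglycan, was at 2660 to 4360 CPM in normoxia. Cdh5, which defines endothelial cells, was at 0 to 0.0904 CPM in culture, and the macrophage gene Lyz2 at 0 to 0.63 CPM. The sum of 16 macrophage genes was 20.3 to 64.2 CPM in the WT line and 9.48 to 19.3 CPM in the KO line. It was highest in WT cells given POVPC in normoxia, where Cd14, at 49.3 to 60.2 CPM, makes up most of it. Library 2 of the WT line under POVPC and hypoxia was the shallowest and held B-cell markers (Ms4a1 6.56 and Cd79a 7.51 CPM) that were at 0 to 1.02 CPM in all other culture libraries. Counts and member results that these libraries change are given with and without them.

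In the WT line under vehicle and normoxia the highest member per length was Sema3c, which encodes a secreted ligand of neuropilins and plexin D1 that directs neural crest and outflow tract cells, at 206 ± 5.4 RPKM (SD, n = 3). Plxnb2, a receptor of class 4 semaphorins, followed at 106 ± 1.3 RPKM. Sema3f, Nrp1 and Sema3a followed at 31.4 ± 1.1, 29.6 ± 0.61 and 29.3 ± 0.30 RPKM. Nrp1 and Sema3a did not differ beyond their spread. In the KO line under the same conditions the order was different. Plxnb2 (67.2 ± 9.6 RPKM) and Nrp2 (64.7 ± 7.2 RPKM) led and overlapped within their spread, Sema3c followed at 39.4 ± 2.2 RPKM, and Sema3d stood at 28.6 ± 2.3 RPKM. In hypoxia Plxnb2 was the highest receptor per length in both lines, followed by Plxna1, which in WT did not differ from Nrp1 beyond their spread (25.5 ± 2.9 and 24.3 ± 3.1 RPKM under vehicle). Of the 31 members, 25 in the WT line and 23 in the KO line averaged at least 1 CPM under vehicle in normoxia. At the low end, Sema5b, Sema7a and Sema3g stayed under 0.62 CPM in each of the 24 culture libraries.

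In lesions, which hold many cell types and were counted as fragments in a separate table, Nrp1 was the highest member per length, at 72.2 ± 8.0 RPKM in KO and 59.7 ± 2.5 RPKM in WT (SD, n = 4). Plxnd1, Plxnb2 and Sema3c came next in both genotypes, at 27.9 to 43.1 RPKM. At least 30 of the 31 members averaged 1 CPM or more there in each genotype. Members at or near 0 in culture were measured in lesions, among them Sema3g at 16.7 to 35.9 CPM, Sema7a at 13.7 to 21.8 CPM and Sema4a, an immune semaphorin, at 21.97 to 29.5 CPM. In contrast, Sema3a was at 2.06 to 4.73 CPM in lesions. Levels in the 2 tables were scaled separately, so no fold is given between them.

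Hypoxia lowered most of the 28 members tested in each line, under vehicle and under POVPC. Nrp2, Sema3a, Sema3b, Sema3c, Sema3f and Plxnd1, which together make up much of the class 3 axis, fell at least 2-fold in all 4 comparisons of hypoxia with normoxia, and so did the transmembrane ligands Sema6c and Sema6d. These 4 comparisons (each line under vehicle and under POVPC) share no libraries with each other. Of the 28 members tested, 16 fell and 5 rose in the WT line under vehicle, 15 fell and 4 rose in the WT line under POVPC, 19 fell and 4 rose in the KO line under vehicle, and 20 fell and 4 rose in the KO line under POVPC. Over all 14496 genes tested, 68.1%, 66.1%, 65.4% and 68.5% were called in these 4 comparisons in the same order. By direction, 35.3%, 34.3%, 32.8% and 33.9% of all genes fell and 32.8%, 31.8%, 32.6% and 34.5% rose. The members' counts are therefore shifted towards lower levels against a background that is nearly even.

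A change of at least 2-fold was called for 14, 12, 16 and 16 of the 28 members in that order, against 28.8%, 27.4%, 26.1% and 29.3% of all genes. Lower in all 4 comparisons were 13 of 28 members, against 19.8% of all genes, and 8 of 28 were at least 2-fold lower in all 4, against 7.78%. Higher in all 4 was 1 member, Plxnb3, against 18.7% of all genes (4.49% at 2-fold, which Plxnb3 also met). The median log2 change over the members was -0.673, -0.733, -0.998 and -1.098, where that over all genes was -0.03, -0.02, 0.02 and 0.03.

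**Figure D1:**
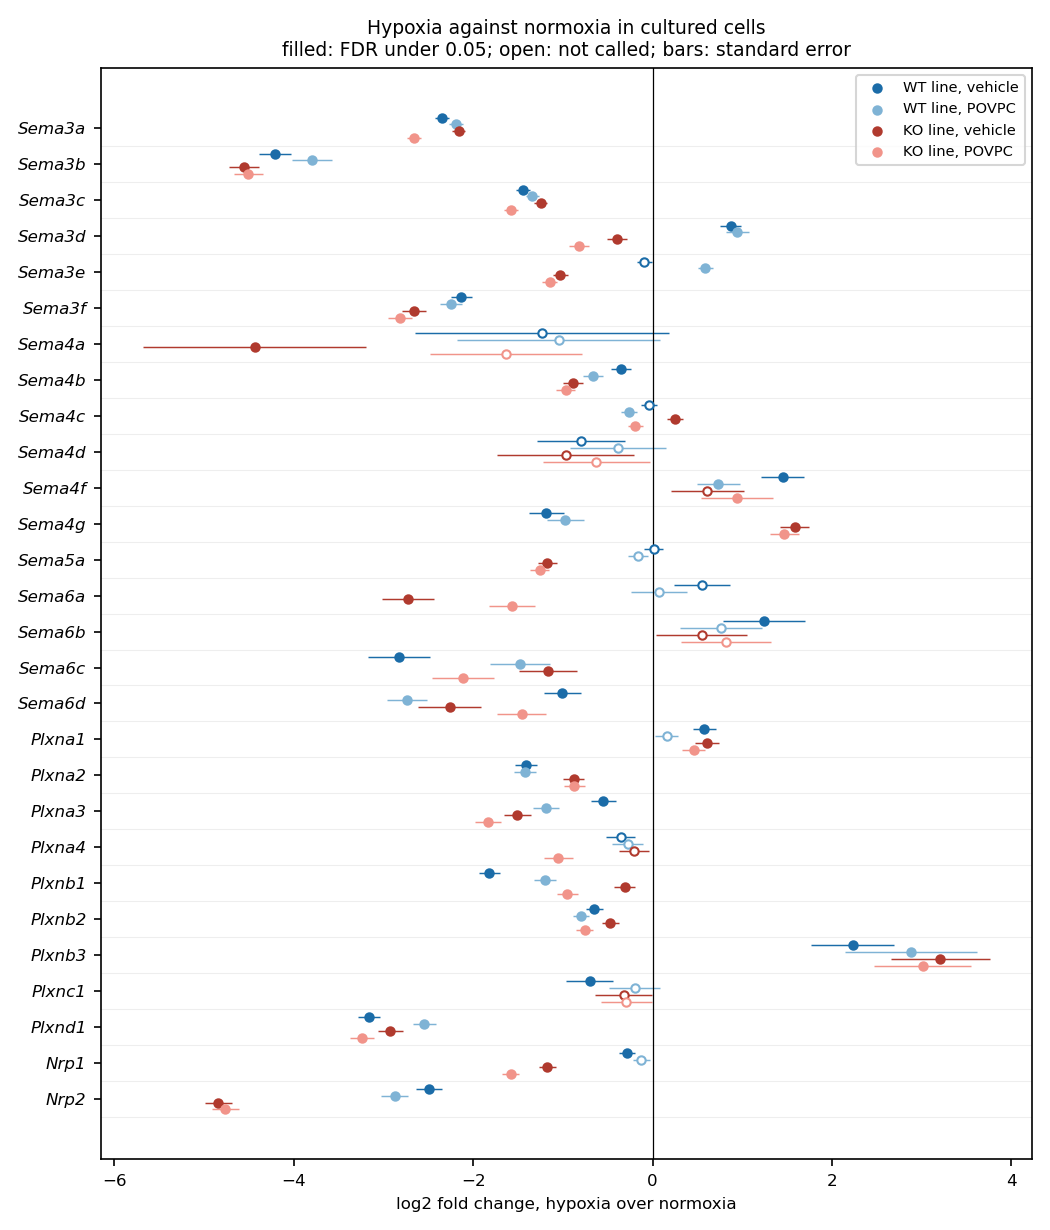
Log2 fold change of hypoxia over normoxia (horizontal axis) for the 28 members tested in culture (rows), in the WT line (blue) and the KO line (red), under vehicle (dark) and POVPC (light). Points are estimates and bars standard errors; filled points had an FDR under 0.05. Nrp2, Plxnd1, Sema3a, Sema3b, Sema3c and Sema3f lie left of 0 in all 4 comparisons, Plxnb3 lies right of 0 in all 4, and Sema3d and Sema4g have opposite signs in the 2 lines.

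Among the secreted ligands, Sema3b, a neuropilin ligand known as a tumour suppressor, fell most. Under vehicle it was at 21.1, 19.7 and 20.02 CPM in the 3 WT normoxia libraries and at 0.911, 1.32 and 1.12 CPM in hypoxia. KO libraries held 65.0, 70.6 and 68.7 CPM in normoxia and 3.71, 2.76 and 1.63 CPM in hypoxia. Every hypoxia library was below every normoxia library in each line. The change was -4.21 ± 0.18 in WT (FDR = 2.97e-18) and -4.55 ± 0.16 in KO (FDR = 8.21e-20), and over the 4 comparisons it ran from -4.55 to -3.80. With POVPC, Sema3b in the WT line was at 13.8, 11.9 and 11.6 CPM in normoxia and 1.06, 1.64 and 0.547 CPM in hypoxia. Sema3b in KO with POVPC was at 67.2, 65.4 and 58.2 CPM in normoxia and 2.78, 2.89 and 2.71 CPM in hypoxia. Here too the hypoxia libraries of each line lay below its normoxia libraries.

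Sema3f, a ligand that acts mainly through Nrp2, lies 72.3 kb from Sema3b on chromosome 9 (mm9, the build of the files) and fell with it. It was at 108, 109 and 102 CPM in WT vehicle normoxia and at 24.1, 21.4 and 27.1 CPM in hypoxia. KO libraries held 40.2, 44.4 and 54.2 CPM and then 8.22, 7.004 and 6.32 CPM. The groups did not overlap, with changes of -2.13 ± 0.12 in WT (FDR = 3.4e-15) and -2.66 ± 0.14 in KO (FDR = 5.47e-16). With POVPC, Sema3f in the WT line was at 104, 84.8 and 96.3 CPM in normoxia and 16.7, 20.8 and 22.4 CPM in hypoxia. Sema3f in KO with POVPC was at 52.2, 56.2 and 52.5 CPM in normoxia and 9.09, 7 and 6.67 CPM in hypoxia. Neither line had overlapping libraries.

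Sema3a, the classical collapsing ligand that signals through Nrp1 and A plexins, was at 215, 211 and 215 CPM in WT vehicle normoxia and at 46.2, 42.4 and 37.6 CPM in hypoxia. The KO line had nearly the same levels, 189, 181 and 195 CPM in normoxia and 43.2, 41.4 and 41.6 CPM in hypoxia. The change was -2.35 ± 0.08 in WT (FDR = 3.19e-21) and -2.16 ± 0.08 in KO (FDR = 3.82e-20). The interaction, which is the log2 change in the KO line minus that in the WT line, was 0.18 ± 0.10 under vehicle and missed the threshold (edgeR FDR = 0.163). That value does not cover POVPC, where the levels of the lines differed. With POVPC, Sema3a was at 13.7 ± 1.1 RPKM (SD) in WT normoxia and 3.02 ± 0.17 RPKM in hypoxia. In KO with POVPC it was at 25.6 ± 0.83 and 4.06 ± 0.22 RPKM. Over the 4 comparisons the change ran from -2.66 to -2.16.

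Sema3c fell from 1036, 991 and 1039 CPM in WT vehicle normoxia to 400, 352 and 375 CPM in hypoxia. It fell from 207, 190 and 187 CPM to 77.1, 80.8 and 88.9 CPM in the KO line. No hypoxia library reached a normoxia library of its line, and the change was -1.44 ± 0.07 in WT (FDR = 1.56e-16) and -1.25 ± 0.07 in KO (FDR = 7.87e-15). Even so, hypoxic WT cells held more Sema3c than normoxic KO cells. With POVPC, Sema3c in the WT line was at 780, 769 and 762 CPM in normoxia and 298, 299.6 and 313 CPM in hypoxia. Sema3c in KO with POVPC was at 189, 183 and 181 CPM in normoxia and 66.8, 54.4 and 64 CPM in hypoxia. The order of the 4 groups was the same as with vehicle.

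Sema3d and Sema3e did not follow the other class 3 ligands in the WT line. Sema3d, a ligand that repels endothelial and neural crest cells, was at 20.1, 16.5 and 17.5 CPM in WT vehicle normoxia and higher, at 40.2, 25.4 and 32.8 CPM, in hypoxia. In the KO line it was at 170, 197 and 193 CPM and lower, at 138, 146 and 141 CPM, in hypoxia. The change was 0.87 ± 0.12 in WT (FDR = 5.35e-07) and -0.40 ± 0.11 in KO (FDR = 0.00349), and the interaction was -1.27 ± 0.17 under vehicle and -1.76 ± 0.17 under POVPC (FDR = 8.5e-07 and 1.05e-08). With POVPC, Sema3d in the WT line was at 12.9, 14.8 and 14.1 CPM in normoxia and 25, 31.4 and 25 CPM in hypoxia. Sema3d in KO with POVPC was at 216, 198 and 201 CPM in normoxia and 123, 100.9 and 125 CPM in hypoxia. WT libraries were again higher and KO libraries lower in hypoxia, without overlap. Sema3e, which binds Plxnd1 directly without a neuropilin, was at 48.8, 52.0 and 48.8 CPM in WT vehicle normoxia and 47.9, 43.3 and 49.1 CPM in hypoxia, which overlap, but with POVPC it rose in WT from 28.3, 24.2 and 24.6 CPM to 34.3, 39.2 and 42.2 CPM (0.59 ± 0.09, FDR = 6.74e-07). Sema3e in KO was at 45.4, 46.1 and 51.7 CPM and fell to 22.6, 24.3 and 23.4 CPM, a change of -1.03 ± 0.09 (FDR = 1.55e-11), and with POVPC the KO change was -1.14 ± 0.08 (FDR = 7.87e-13).

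Sema3a, Sema3c, Sema3d and Sema3e are neighbours on chromosome 5, with gaps of 808 kb between Sema3d and Sema3a, 422 kb between Sema3a and Sema3e and 2820 kb between Sema3e and Sema3c. Their levels did not move as a block: in WT cells given vehicle, Sema3a and Sema3c fell, Sema3d rose and Sema3e missed the threshold.

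The summed RPKM of the class 3 ligands describes the net level. It was 277 to 286.8 in WT vehicle normoxia and 93.81 to 107.7 in hypoxia, and 131.2 to 137.6 and 49.54 to 51.15 in the KO line. Sema3c makes up most of the sum in WT.

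The membrane-bound ligands were mixed. Sema4b fell in all 4 comparisons (-0.97 to -0.35), and Sema4c moved by at most 0.26 in either direction. Sema4d, a ligand of Plxnb1 best known from lymphocytes, passed the test in none and stayed at or under 2.19 CPM. Its spread was widest in WT POVPC hypoxia (0.249 ± 0.218 RPKM, SD), the group with the library that held B-cell markers. Sema4f was at 4.10, 4.36 and 3.51 CPM in WT vehicle normoxia and at 11.5, 10.6 and 10.6 CPM in hypoxia, a rise of 1.45 ± 0.24 (FDR = 3.56e-06). Sema4f in KO was at 0.256, 0.701 and 0.757 CPM and then at 0.844, 1.24 and 0.408 CPM, which overlap. With POVPC, Sema4f in the WT line was at 6.63, 5.9 and 3.37 CPM in normoxia and 8.93, 7.65 and 9.69 CPM in hypoxia. Sema4f in KO with POVPC was at 0.318, 0.57 and 0.458 CPM in normoxia and 0.913, 0.452 and 1.2 CPM in hypoxia. Both rises with POVPC were called (0.73 ± 0.24 in WT and 0.94 ± 0.40 in KO, FDR = 0.00923 and 0.0385), the KO libraries overlapped, and each call was lost under at least 1 alternative. Sema4a was at 0.398 to 0.614 CPM in KO vehicle normoxia and at 0 to 0.0422 CPM in hypoxia, which is under 3 counts, and in WT it was at or under 0.362 CPM throughout.

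Sema4g, a class 4 ligand of little known function, went opposite ways in the 2 lines. In the WT line under vehicle it was at 8.46, 9.57 and 8.13 CPM in normoxia and at 3.43, 2.69 and 5.11 CPM in hypoxia. KO libraries were at 19.2, 22.4 and 28.7 CPM in normoxia and at 74.5, 67.3 and 69.7 CPM in hypoxia. Hypoxia libraries were all lower than normoxia libraries in WT and all higher in KO. The change was -1.19 ± 0.19 in WT (FDR = 7.73e-06) and 1.59 ± 0.16 in KO (FDR = 5.07e-09), with an interaction of 2.77 ± 0.25 under vehicle (FDR = 3.09e-09) and 2.44 ± 0.26 under POVPC (FDR = 6.11e-08). With POVPC, Sema4g in the WT line was at 10.5, 9.49 and 9.9 CPM in normoxia and 4.62, 2.87 and 6.45 CPM in hypoxia. Sema4g in KO with POVPC was at 24.5, 22.7 and 24.2 CPM in normoxia and 74.8, 57 and 66 CPM in hypoxia. The WT libraries were again lower and the KO libraries higher in hypoxia. The directions were the same under each scaling tried.

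Of the class 5 and 6 ligands, Sema5a, a ligand of Plxnb3, was at 29.2, 32.0 and 30.5 CPM in WT vehicle normoxia and 28.8, 27.7 and 35.7 CPM in hypoxia, which overlap. It fell in KO from 116, 126 and 135 CPM to 54.8, 57.5 and 54.7 CPM, by 1.17 ± 0.10 on the log2 scale (FDR = 6.25e-11). Sema6a, a ligand of Plxna2 and Plxna4, likewise passed the test in KO and not in WT: it was at 5.84, 10.96 and 15.9 CPM in normoxia and 1.90, 1.91 and 0.815 CPM in hypoxia, while WT cells were at 1.33, 1.43 and 1.16 CPM and 1.86, 1.81 and 2.06 CPM. The interaction under vehicle was -1.19 ± 0.15 for Sema5a and -3.27 ± 0.43 for Sema6a (FDR = 1.98e-07 and 5.73e-07). With POVPC, Sema5a in the WT line was at 24.9, 28.1 and 25.4 CPM in normoxia and 21.2, 28 and 21.9 CPM in hypoxia. Sema5a in KO with POVPC was at 138, 123 and 114 CPM in normoxia and 60.6, 46.7 and 49.6 CPM in hypoxia. The WT groups overlapped and the KO groups did not. With POVPC, Sema6a in the WT line was at 2.12, 2.43 and 2.87 CPM in normoxia and 2.04, 2.87 and 2.85 CPM in hypoxia. Sema6a in KO with POVPC was at 11.2, 11.1 and 9.93 CPM in normoxia and 2.82, 4.97 and 3.11 CPM in hypoxia. For Sema6a too the overlap was in WT.

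Sema6c and Sema6d fell in all 4 comparisons from low levels. Sema6c was at 3.28, 4.29 and 3.76 CPM in WT vehicle normoxia and 0.315, 0.659 and 0.643 CPM in hypoxia, and in KO at 2.46, 3.24 and 3.03 CPM and then 1.14, 1.57 and 1.12 CPM. Under POVPC and hypoxia the WT libraries held 0.606, 2.73 and 1.21 CPM of Sema6c, and the high value is from library 2, which held the B-cell markers. The WT change under POVPC was -1.48 ± 0.33 (FDR = 0.000305) and without that library -1.92 ± 0.33 (FDR = 1.63e-05). With POVPC, Sema6c was at 4.12, 3.62 and 3.51 CPM in WT normoxia. It was at 2.42, 3.03 and 2.56 CPM in KO normoxia and 0.747, 0.813 and 0.267 CPM in KO hypoxia, which do not overlap. Sema6d, a ligand of A plexins that acts in heart development, was at 9.36, 8.62 and 8.31 CPM in WT vehicle normoxia and 3.96, 4.12 and 4.98 CPM in hypoxia, a change of -1.004 ± 0.21 (FDR = 0.000116). In KO, Sema6d was at 1.69, 2.50 and 3.11 CPM and then 0.422, 0.191 and 1.32 CPM, also without overlap. With POVPC, Sema6d in the WT line was at 27.5, 29.4 and 27.3 CPM in normoxia and 3.03, 4.78 and 4.77 CPM in hypoxia. Sema6d in KO with POVPC was at 2.73, 3.06 and 3.59 CPM in normoxia and 1.45, 0.903 and 1.02 CPM in hypoxia. All hypoxia libraries were the lower ones. Sema6b rose past the threshold in WT under vehicle alone, from 0.144, 0.318 and 0.434 CPM to 0.630, 0.988 and 0.575 CPM, a call that was lost under scaling by library size and without WT vehicle normoxia 1 or WT vehicle hypoxia 2.

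**Figure D2:**
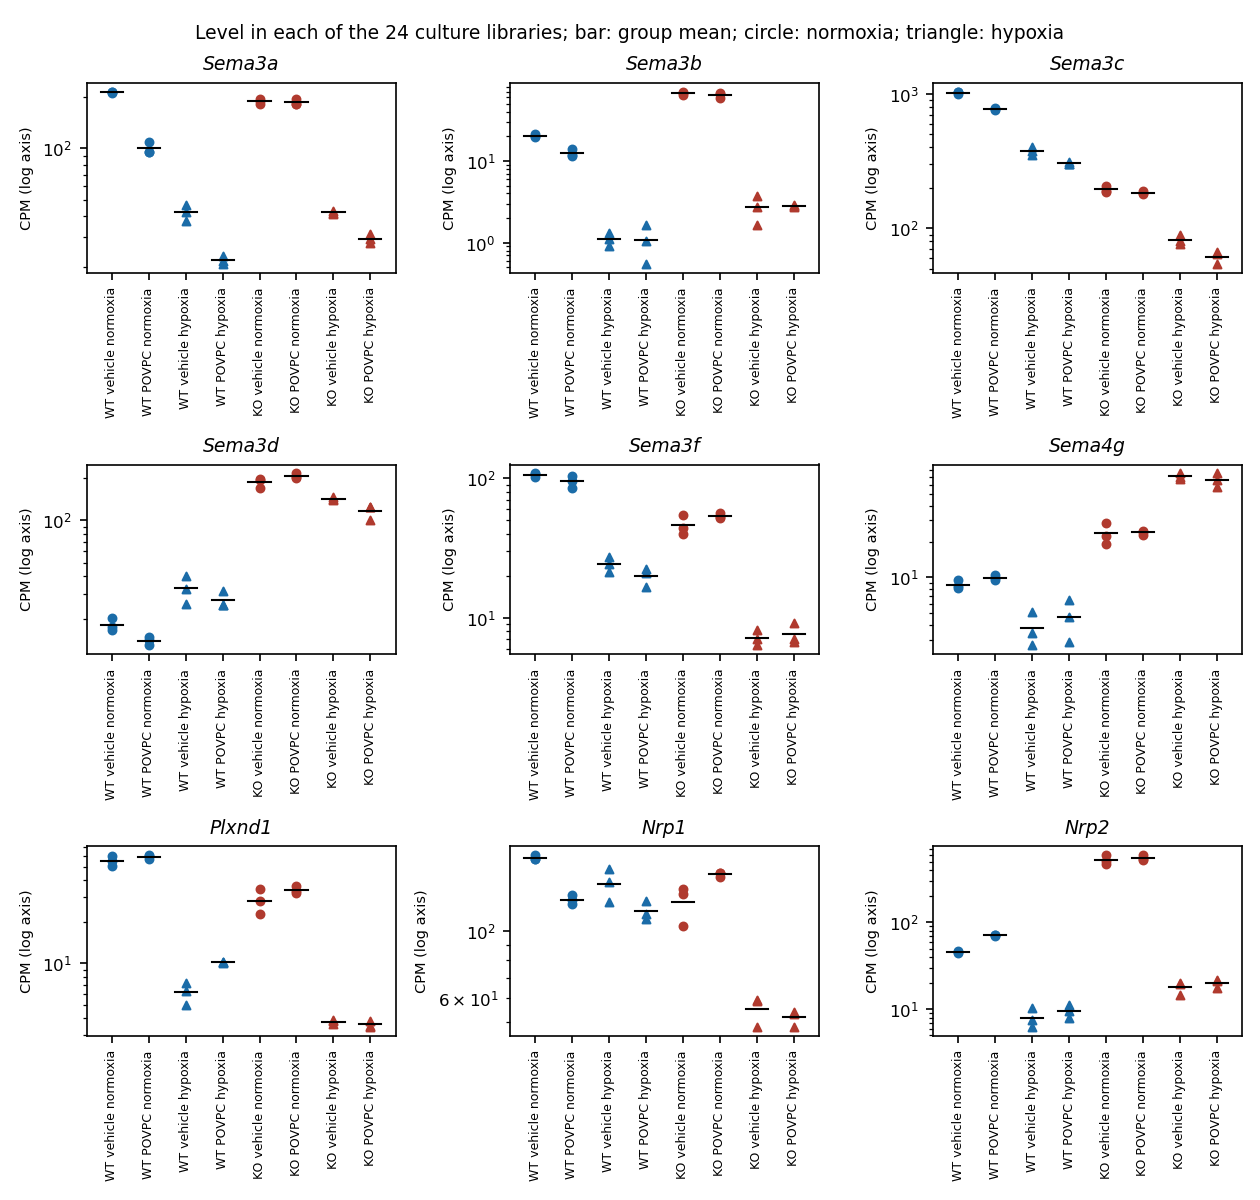
CPM on a log axis in each of the 24 culture libraries for 9 members, by group (horizontal axis). Points are libraries (blue WT line, red KO line; circles normoxia, triangles hypoxia) and bars are group means. Nrp2 and Sema3d are highest in normoxic KO cells, Sema3c and Sema3f are highest in normoxic WT cells, and Sema4g is highest in hypoxic KO cells.

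Among the receptors, Nrp2 fell most in both KO comparisons and in WT with POVPC, and Plxnd1 fell most in WT with vehicle. Nrp2 was at 45.9, 44.6 and 47.0 CPM in WT vehicle normoxia and at 10.3, 6.26 and 7.62 CPM in hypoxia. KO cells had 475, 511 and 590 CPM in normoxia and 19.9, 19.8 and 14.6 CPM in hypoxia. Hypoxic KO cells thus held less Nrp2 than normoxic WT cells, although normoxic KO cells held the most. The change was -2.49 ± 0.14 in WT (FDR = 1.54e-13) and -4.84 ± 0.15 in KO (FDR = 1.85e-18), and the 2 changes differed by -2.35 ± 0.20 (interaction FDR = 1.06e-09). Under POVPC the interaction was -1.89 ± 0.20 (FDR = 7.21e-08). With POVPC, Nrp2 in the WT line was at 71.6, 69 and 71.9 CPM in normoxia and 7.87, 9.56 and 11.2 CPM in hypoxia. Nrp2 in KO with POVPC was at 602, 534 and 520.5 CPM in normoxia and 21.2, 22 and 17.7 CPM in hypoxia. The groups again did not overlap in either line.

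Nrp1 changed less. It was at 173, 180 and 173 CPM in WT vehicle normoxia and at 145, 125 and 161 CPM in hypoxia, a change of -0.29 ± 0.09 (FDR = 0.00787) that was lost without WT vehicle hypoxia 2. Nrp1 in KO was at 104, 132 and 138 CPM and at 58.8, 58.5 and 48.1 CPM, a change of -1.17 ± 0.10 (FDR = 9.34e-12). The fall was larger in KO, with an interaction of -0.89 ± 0.13 under vehicle and -1.46 ± 0.13 under POVPC (FDR = 3.6e-06 and 9.25e-10). The summed RPKM of both neuropilins was 34.9 to 35.81 in WT vehicle normoxia and 21.85 to 28.16 in hypoxia, and 76.06 to 95.94 and 9.919 to 12.39 in the KO line.

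Plxnd1, the receptor of Sema3e and, with neuropilins, of Sema3c, fell in all 4 comparisons. It was at 50.7, 60.1 and 55.0 CPM in WT vehicle normoxia and at 4.97, 6.31 and 7.24 CPM in hypoxia. In KO it was at 22.8, 28.1 and 34.5 CPM and at 3.80, 3.62 and 3.87 CPM. The lowest normoxia library was well above the highest hypoxia library in each line, and the changes were -3.16 ± 0.13 (FDR = 6.12e-19) and -2.92 ± 0.14 (FDR = 6.38e-17). Their difference of 0.24 ± 0.19 missed the threshold (edgeR FDR = 0.345). Under POVPC the interaction for Plxnd1 was -0.70 ± 0.18 (FDR = 0.00458). With POVPC, Plxnd1 in the WT line was at 61.4, 57.1 and 59.7 CPM in normoxia and 10.1, 10.1 and 10.2 CPM in hypoxia. Plxnd1 in KO with POVPC was at 36.4, 33.3 and 32.4 CPM in normoxia and 3.45, 3.52 and 3.82 CPM in hypoxia. KO cells had the lower level in both conditions.

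The A plexins, which pair with neuropilins for class 3 ligands, split. Plxna2 fell in all 4 comparisons, from 168, 181 and 183 CPM to 61.1, 59.7 and 79.0 CPM in WT vehicle cells, a change of -1.41 ± 0.12 (FDR = 1.01e-10), and Plxna3 fell by 0.55 to 1.83 on the log2 scale. Plxna1 instead rose in 3 of the 4: it was at 148, 165 and 150 CPM in WT vehicle normoxia and 214, 215 and 260 CPM in hypoxia, a change of 0.58 ± 0.13 (FDR = 0.000434). Plxna4 passed the test in KO under POVPC and in none of the other 3 (-1.05 ± 0.16, FDR = 1.53e-06).

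The B plexins, receptors of class 4 and 5 semaphorins, split in the same way. Plxnb2 fell in all 4, from 697, 705 and 687 CPM to 443, 415 and 476 CPM in WT vehicle cells. Plxnb1 fell from 59.6, 62.6 and 59.4 CPM to 15.4, 15.7 and 20.2 CPM in WT (-1.82 ± 0.12, FDR = 3.7e-14). In KO, Plxnb1 went from 28.96, 30.4 and 36.5 CPM to 25.1, 25.1 and 27.4 CPM (-0.31 ± 0.12, FDR = 0.0214), a call lost without KO vehicle normoxia 3 or without hypoxia 1 or 2, and the interaction was 1.51 ± 0.16 (FDR = 1.72e-08). Plxnb3, the receptor of Sema5a, rose from 0.432, 0.382 and 0.181 CPM to 2.10, 1.10 and 1.49 CPM in WT and from 0.205, 0.0877 and 0.199 CPM to 1.86, 1.72 and 0.917 CPM in KO. Its normoxia values are near the level of a few counts. With POVPC, Plxnb3 in the WT line was at 0.127, 0.0724 and 0 CPM in normoxia and 0.757, 0.41 and 0.469 CPM in hypoxia. Plxnb3 in KO with POVPC was at 0.127, 0.214 and 0.0764 CPM in normoxia and 1.79, 0.678 and 1.02 CPM in hypoxia. Hypoxia libraries were all higher. Plxnc1, the receptor of Sema7a, stayed at 0.813 to 3.15 CPM and was called in 1 of the 4 comparisons.

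Cell state markers moved with hypoxia in the same libraries. The summed level of 12 contractile smooth muscle genes was 386 to 444 CPM in WT vehicle normoxia and 79.0 to 87.5 CPM in hypoxia. In KO it was 146 to 205 CPM and 70.6 to 75.3 CPM. Acta2, at 233 to 280 CPM, makes up most of the sum in WT vehicle normoxia. Of 11 tested under vehicle, 10 were lower and 1 higher in WT (35.3% and 32.8% of all genes). In KO 5 were lower and 1 higher (32.8% and 32.6%). Tagln went the other way, from 8.42 to 9.94 CPM in WT normoxia to 19.3 to 27.6 CPM in hypoxia. In KO it was at 3.59 to 5.22 CPM and then 12.7 to 14.3 CPM. The summed level of 12 adventitial fibroblast genes was 3870 to 4880 CPM over the normoxia groups and 260 to 993 CPM over the hypoxia groups. Under vehicle 7 of 12 were called lower and 4 higher in WT, and 11 of 12 lower in KO. Dcn, at 2660 to 4360 CPM in normoxia, makes up most of that sum. The sum of 14 endothelial genes was 6.07 to 9.42 CPM in normoxia and 17.5 to 36.1 CPM in hypoxia, most of it Flt1 (15.4 to 30.9 CPM in hypoxia), while Cdh5 was at or near 0. Their part in the members' changes was not tested.

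The KO line differed from the WT line in most members, in both directions. Of the 28 tested, 10 were higher and 11 lower under vehicle in normoxia, 9 and 11 under vehicle in hypoxia, 13 and 7 under POVPC in normoxia, and 9 and 10 under POVPC in hypoxia. Over all genes 60.6%, 59.9%, 60.2% and 57.6% were called (29.8%, 29.5%, 29.5% and 30% higher, 30.8%, 30.4%, 30.7% and 27.6% lower). Changes of at least 2-fold were called for 13, 12, 9 and 13 of the 28 members, against 21.7%, 20.7%, 20.9% and 18.8% of all genes. These 4 comparisons share no libraries with each other, but share them with the hypoxia comparisons.

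Higher in KO in all 4 conditions were 7 of 28 members (Nrp2, Plxna2, Sema3b, Sema3d, Sema4c, Sema4g and Sema5a), against 14% of all genes, and 4 of them by at least 2-fold (Nrp2, Sema3b, Sema3d and Sema4g), against 3.19%. Lower in all 4 were 6 (Plxnb2, Plxnd1, Sema3c, Sema3f, Sema4f and Sema6d), against 13.8%, and 3 of them by at least 2-fold (Sema3c, Sema4f and Sema6d), against 3.92%.

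The largest of these differences were in ligands and in Nrp2. In normoxia under vehicle Nrp2 was 3.52 ± 0.14 higher in KO on the log2 scale (FDR = 2.09e-16), and the 3 KO libraries lay at 475 CPM or more against at most 47.0 CPM in WT. Sema3d was 3.37 ± 0.13 higher (FDR = 6.4e-18), and Sema3b 1.75 ± 0.13 higher (FDR = 1.62e-12). Sema3c was 2.39 ± 0.08 lower in KO on that scale (-2.39, FDR = 6.52e-21), and Sema3f was lower by -1.20 ± 0.11 (FDR = 5.37e-10). The class 3 ligand RNAs of the 2 lines thus differed in level under vehicle in normoxia: Sema3c and Sema3f were higher in WT, Sema3b and Sema3d in KO. Sema3c was the highest of them per length in both lines. Sema3a differed by -0.18 ± 0.07, a call (edgeR FDR = 0.0276) that was lost when any of several single libraries was left out.

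Sema4f was lower in KO, by -2.75 ± 0.32 in normoxia and -3.59 ± 0.30 in hypoxia under vehicle (FDR = 1.77e-08 and 2.35e-11). Sema4g was higher in KO by 1.43 ± 0.17 in normoxia and by 4.20 ± 0.19 in hypoxia (FDR = 9.45e-08 and 1.61e-15), as its opposite changes under hypoxia require. Sema5a was 2.04 ± 0.11 higher and Sema6a 3.06 ± 0.28 higher in KO normoxia (FDR = 5.49e-16 and 2.3e-10). In hypoxia the Sema6a difference was -0.21 ± 0.33 and missed the threshold (edgeR FDR = 0.598).

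In normoxia receptors other than Nrp2 differed less than Nrp2 did. Under vehicle Plxna2 was 0.78 ± 0.12 higher in KO in normoxia, Plxnb2 was lower by -0.66 ± 0.09 and Plxnd1 by -0.96 ± 0.11 (FDR = 2.81e-06, 3.7e-07 and 2.01e-08). Nrp1 was lower in KO under vehicle in normoxia (-0.49 ± 0.09, FDR = 4.21e-05) and in both hypoxia conditions (-1.38 ± 0.10 and -1.18 ± 0.10), but higher under POVPC in normoxia (0.28 ± 0.09, FDR = 0.0107). Plxnb1 was lower in KO in normoxia under vehicle (-0.92 ± 0.11, FDR = 4.43e-08) and higher in hypoxia (0.59 ± 0.12, FDR = 0.000114).

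**Figure D3:**
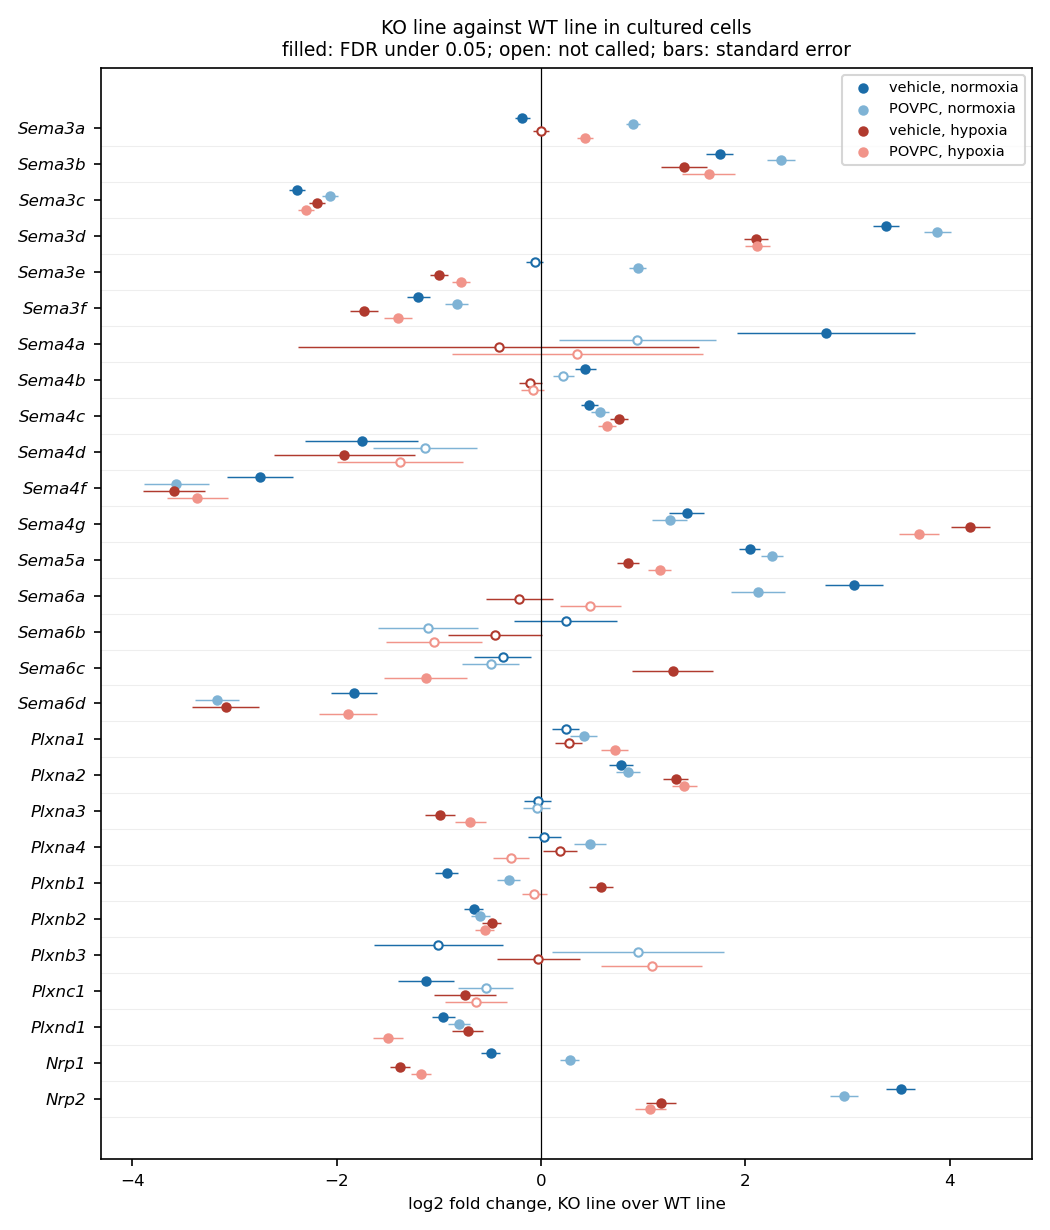
Log2 fold change of the KO line over the WT line (horizontal axis) for the 28 members tested (rows), in normoxia (blue) and hypoxia (red), under vehicle (dark) and POVPC (light). Points are estimates and bars standard errors; filled points had an FDR under 0.05. Sema3c, Sema4f and Sema6d lie at least 1 unit left of 0 in all 4 conditions, and Nrp2, Sema3b, Sema3d and Sema4g at least 1 unit right.

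The lines also differed in markers. Cd34 was at 106 to 128 CPM in normoxic KO cells and at 1.14 to 3.02 CPM in normoxic WT cells, and of the 12 adventitial fibroblast genes 9 were higher and 2 lower in KO under vehicle and normoxia, although their sums were close (3920 to 4610 CPM in KO, 4860 to 4880 CPM in WT). Of 11 contractile genes tested, 9 were lower and 1 higher in KO under vehicle and normoxia, against 30.8% and 29.8% of all genes. Fewer were lower in the other conditions. Under vehicle in hypoxia 4 were lower and 0 higher, under POVPC in normoxia 3 and 2, and under POVPC in hypoxia 2 and 3. Whether these go with the member differences was not tested.

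POVPC lowered several class 3 ligands in the WT line, and Sema3a and Sema3c also in the KO line in hypoxia. Sema3f was called in 0 of the 4 POVPC comparisons. Whether the number called differs between the lines was not tested. In WT normoxia 4 of 28 members rose and 8 fell (26.9% of all genes were called), and in WT hypoxia 2 rose and 7 fell (21% of all genes). In KO hypoxia 1 rose and 2 fell (4.06% of all genes). In KO normoxia 0 of 28 were called by edgeR, 6 had an unadjusted p under 0.05, and 6 of all 14496 genes (0.0414%) were called. That count rests on library 3 of KO vehicle normoxia, in which the ribosomal precursor Rn45s took 8.02% of counts against 1.59% and 1.29% in libraries 1 and 2. Without it Nrp1, Plxna2 and Plxnd1 rose, by 0.39 ± 0.10, 0.43 ± 0.11 and 0.42 ± 0.11 (FDR = 0.0429, 0.0467 and 0.0467), and 310 of all genes were called. Libraries 1 and 2, the vehicle libraries left in that fit, had 3.88 and 2.84 multimapping reads per assigned read. Library 3 had 0.793, and the KO POVPC normoxia libraries had 0.774 to 1.47. Over all culture libraries this ratio ran from 0.743 to 9.24, and its part in the changes was not tested.

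Of the 12 members called in WT normoxia, 5 were class 3 ligands (Sema3a, Sema3b, Sema3c, Sema3d and Sema3e), and all 5 fell. Sema3a went from 215, 211 and 215 CPM under vehicle to 109, 95.3 and 95.5 CPM under POVPC, a change of -1.10 ± 0.07 (FDR = 7.1e-13). Sema3e went from 48.8, 52.0 and 48.8 CPM to 28.3, 24.2 and 24.6 CPM (-0.96 ± 0.08, FDR = 2.66e-10). Neither pair of groups overlapped. In the KO line Sema3a was at 189, 181 and 195 CPM under vehicle and 194, 183 and 183 CPM under POVPC, and Sema3e at 45.4 to 51.7 and 48.6 to 50.8 CPM, which overlap. The responses of the lines differed, with an interaction of 1.08 ± 0.10 for Sema3a (FDR = 2.87e-09) and 1.01 ± 0.12 for Sema3e (FDR = 1.54e-07).

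Sema3b fell by 0.70 ± 0.13 and Sema3c by 0.41 ± 0.07 on the log2 scale in WT normoxia (FDR = 0.000162 and 5.8e-05). Sema3d fell by 0.37 ± 0.13 (FDR = 0.0286), a call lost without WT vehicle 1 or without POVPC library 1 or 3. Sema6d rose most: it was at 9.36, 8.62 and 8.31 CPM under vehicle and at 27.5, 29.4 and 27.3 CPM under POVPC, 1.68 ± 0.20 higher (FDR = 7.39e-08). In KO it was at 1.69, 2.50 and 3.11 CPM and at 2.73, 3.06 and 3.59 CPM, which overlap, and the interaction was -1.34 ± 0.31 (FDR = 0.00252).

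Among receptors in WT normoxia, Nrp1 fell from 173, 180 and 173 CPM to 127, 131 and 123 CPM (-0.46 ± 0.09, FDR = 0.000282). Nrp2 moved the other way, from 45.9, 44.6 and 47.0 CPM to 71.6, 69.0 and 71.9 CPM (0.63 ± 0.13, FDR = 0.000623). The 2 co-receptors thus changed in opposite directions without overlap of their libraries. Plxnb1 and Plxnb3 fell (-0.33 ± 0.11 and -2.17 ± 0.73, FDR = 0.0276 and 0.0256), Sema4b and Sema6a rose (0.42 ± 0.11 and 0.91 ± 0.31, FDR = 0.00285 and 0.0273), and each of these 4 calls was lost under at least 1 alternative. Rn45s took 3.23 to 11.1% of counts in the WT POVPC normoxia libraries and 1.31 to 1.5% in their vehicle controls, and its part in these changes was not tested. Marker genes also moved in WT normoxia. The contractile sum was 386 to 444 CPM under vehicle and 187 to 224 CPM under POVPC, with 8 of 11 genes lower and 1 higher. Of 12 adventitial fibroblast genes 7 rose and 3 fell, where 13.1% and 13.8% of all genes did. Ly6a was at 8.87 to 9.76 CPM and then 388 to 413 CPM. In KO normoxia 0 genes of either list were called. The part of these genes in the member changes was not tested.

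In WT hypoxia Sema3a fell again under POVPC, from 46.2, 42.4 and 37.6 CPM to 20.97, 23.4 and 21.7 CPM (-0.94 ± 0.08, FDR = 5.43e-10). Plxnd1 rose from 4.97, 6.31 and 7.24 CPM to 10.1, 10.1 and 10.2 CPM (0.72 ± 0.14, FDR = 0.000341). In KO hypoxia Sema3a fell from 43.2, 41.4 and 41.6 CPM to 31.3, 28.01 and 29.4 CPM (-0.51 ± 0.08, FDR = 9.89e-05) and Sema3c by 0.41 ± 0.07 on the log2 scale (FDR = 0.000893). Sema3a was thus lower under POVPC in 3 of the 4 comparisons, and in none of these 3 did the groups overlap. Sema3c was also called lower in 3 of the 4. Sema6c rose in WT hypoxia (1.33 ± 0.41, FDR = 0.0198), but by 0.88 ± 0.40 without library 2 of the POVPC group (FDR = 0.149). Without that library 6 of 28 members were called in WT hypoxia instead of 9.

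**Figure D4:**
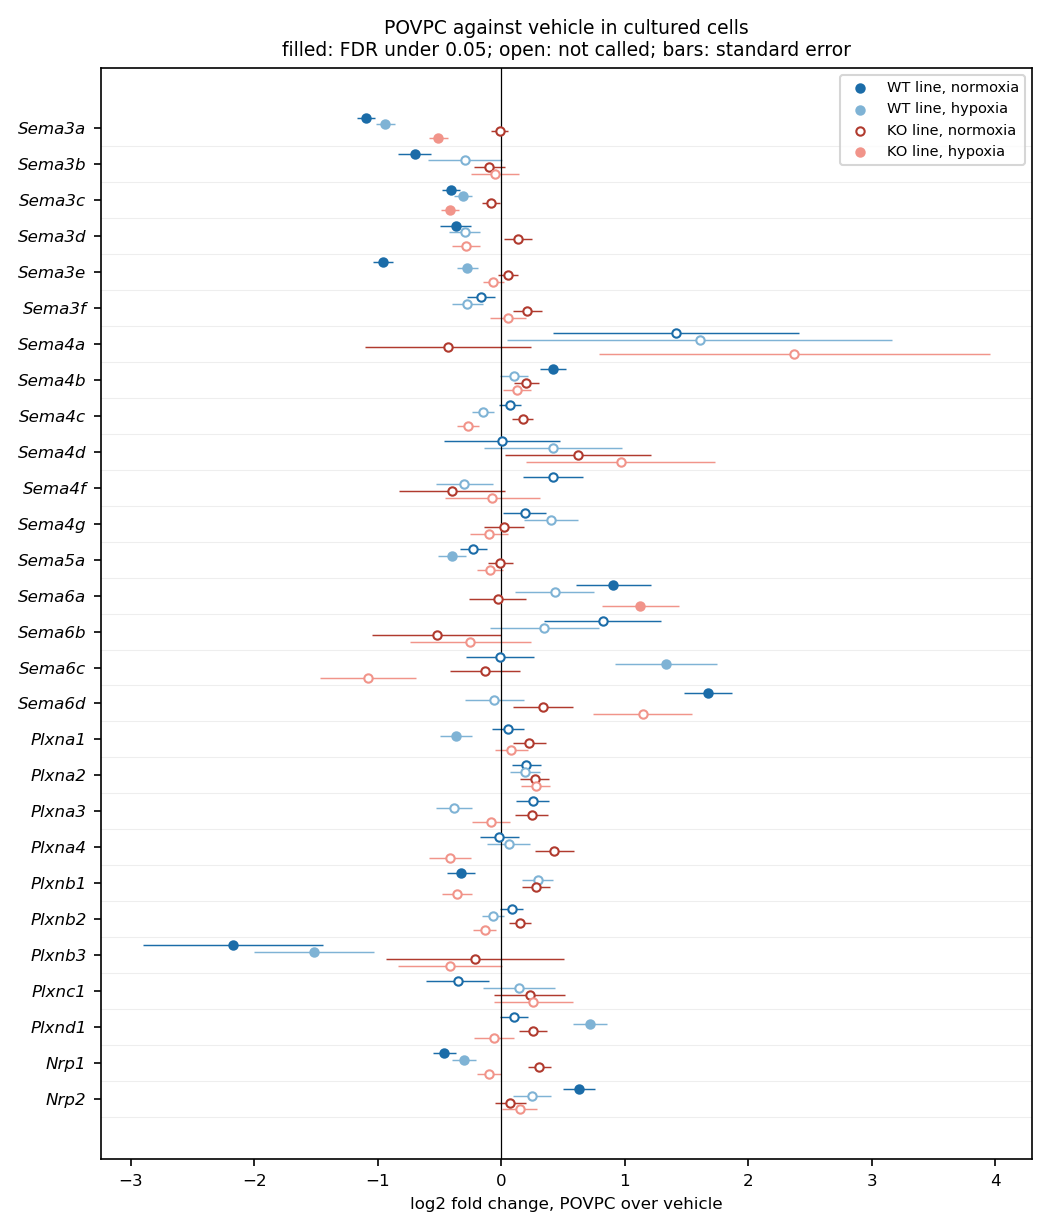
Log2 fold change of POVPC over vehicle (horizontal axis) for the 28 members tested (rows), in the WT line (blue) and the KO line (red), in normoxia (dark) and hypoxia (light). Points are estimates and bars standard errors; filled points had an FDR under 0.05. Sema3a and Sema3e lie left of 0 in WT normoxia and near 0 in KO normoxia, where no point is filled.

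Tests of the difference between the lines, over all members, gave 9 called members for POVPC in normoxia (7 with a higher change in KO, 2 lower, against 16.2% of all genes), 4 for POVPC in hypoxia (9.37%), 14 for hypoxia under vehicle (4 higher, 10 lower, against 39.1%) and 14 for hypoxia under POVPC (3 higher, 11 lower, against 30%). Under scaling by library size alone the split for POVPC in normoxia was 8 and 1. The comparisons share libraries, so these counts are not independent of each other.

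Known ligand and receptor pairs can be read side by side in vehicle groups. For Sema3a with Nrp1 and the A plexins, hypoxia lowered the ligand and Plxna2 in both lines and Nrp1 in both, more in KO, while Plxna1 rose. For Sema3c and Sema3f with Nrp2, Plxna3 and Plxnd1, all 5 fell in both lines, while Plxna1, which belongs to the same set, rose in both. For Sema3e with Plxnd1, the receptor fell in both lines and the ligand passed the test in KO and not in WT. For Sema4c with Plxnb2, the receptor fell while the ligand moved by -0.04 ± 0.09 in WT and 0.25 ± 0.09 in KO. For Sema5a with Plxnb3, the receptor rose from near 0 in both lines and the ligand fell in KO. For Sema4d with Plxnb1, the ligand was at or under 1.30 CPM in these groups. For Sema6a and Sema6b with Plxna2 and Plxna4, Plxna2 fell in both lines, Plxna4 passed the test in neither, Sema6a fell in KO and Sema6b rose in WT. Sema6c and Sema6d fell where Plxna1, a receptor of Sema6d, rose. For Sema7a with Plxnc1, the ligand was at or under 0.316 CPM in all culture libraries.

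Other genes of the pathway, from lists written with earlier results of these data known, moved in both directions under hypoxia. For all the lists below, the background is the share of all genes called. In WT vehicle, WT POVPC, KO vehicle and KO POVPC, 32.8%, 31.8%, 32.6% and 34.5% of all genes rose. In the same order 35.3%, 34.3%, 32.8% and 33.9% of all genes fell. Of 34 genes of plexin and neuropilin signalling tested, 15, 18, 18 and 18 rose and 9, 10, 9 and 11 fell in WT vehicle, WT POVPC, KO vehicle and KO POVPC. In WT under vehicle these included Rhoa, the GTPase that contracts the cytoskeleton (0.99 ± 0.06), Rras2 (1.19 ± 0.09), Arhgef12, a plexin B partner that activates RhoA (-1.36 ± 0.09), and Mical3, a flavoprotein of the family that oxidizes actin (-1.77 ± 0.13). The median over this list was 0.12 in WT and 0.25 in KO under vehicle, above that of all genes, whereas the median of the members was below it.

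Of 9 VEGF ligands, receptors and partners tested, 3 rose in each comparison and 4, 5, 5 and 4 fell in the same order. Vegfa, a ligand of Nrp1 and a known hypoxia target, rose by 2.66 ± 0.08 in WT and 1.30 ± 0.08 in KO under vehicle (FDR = 1.9e-21 and 2.3e-14). Flt1, its receptor, rose by 3.40 ± 0.16 and 2.63 ± 0.15, and Figf, which encodes VEGF-D, fell (-2.11 ± 0.08 and -0.66 ± 0.07). So Vegfa rose in the cells in which Nrp2 fell. Of 12 other semaphorin receptors and co-receptors 3, 3, 2 and 2 rose and 6, 7, 4 and 7 fell, among them Ptk7 (-2.60 ± 0.16 in WT and -1.13 ± 0.14 in KO under vehicle). Of 30 genes of other guidance families 8, 10, 7 and 10 rose and 15, 14, 11 and 16 fell, with Epha4 higher by 2.65 ± 0.09 in WT and 1.44 ± 0.08 in KO and Slit3 lower in WT (-3.99 ± 0.17).

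In lesions no member passed the test between KO and WT animals. Of 30 tested, 0 were called by edgeR, 6 had an unadjusted p under 0.05, 14 had an estimate above 0 and 16 below, and the median was -0.07 against -0.01 over all genes. Over all 14993 genes tested 0 (0%) were called and 2216 had an unadjusted p under 0.05. With DESeq2, 457 genes and 1 member, Plxnb1, were called. In bulk tissue, fewer cells of a type and less RNA per cell cannot be told apart.

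Plxnb1, the receptor of Sema4d, had the smallest p among members. It was at 33.0, 34.2, 29.3 and 36.9 CPM in the 4 KO animals and at 61.9, 50.5, 63.1 and 42.8 CPM in the 4 WT animals. All KO animals were below all WT animals. The estimate was -0.71 ± 0.14, with an edgeR FDR of 0.17 (unadjusted p = 0.000499) and a DESeq2 adjusted p of 0.00151, and with KO 4 and WT 1 both left out it was -0.71 (edgeR FDR = 0.168).

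Nrp2 was at 178, 203, 205 and 254 CPM in KO and at 174, 164, 158 and 170 CPM in WT, also without overlap, with an estimate of 0.33 ± 0.11 (edgeR FDR = 0.237). Nrp1 was at 362, 430, 447 and 472 CPM in KO and at 365, 335, 348 and 366 CPM in WT, where 1 KO animal fell within the WT range (0.27 ± 0.11, edgeR FDR = 0.28). Both estimates lie above 0, and the summed RPKM of the neuropilins was 82.98 to 110.9 in KO and 76.76 to 83.13 in WT, which overlap.

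Sema3g, a class 3 ligand found in endothelium, was at 29.03, 26.1, 29.9 and 35.9 CPM in KO and at 29.4, 21.2, 16.7 and 21.9 CPM in WT (0.44 ± 0.17, edgeR FDR = 0.274). Sema3b was at 45.1, 44.5, 44.6 and 40.2 CPM in KO and at 42.4, 52.3, 62.8 and 56.7 CPM in WT (-0.30 ± 0.12, edgeR FDR = 0.291). In both, the ranges of the genotypes overlap. With KO 4 and WT 1 both left out, the estimates were 0.24 for Nrp2, 0.23 for Nrp1, 0.50 for Sema3g, -0.37 for Sema3b, -0.25 for Plxna4, 0.11 for Plxnc1 and 0.12 for Sema4d, with edgeR FDRs of 0.191 to 0.716, and 0 members were called. The estimates of all 30 members lay between -0.71 and 0.44, and those of Sema3a, Sema3c, Sema3d, Sema3e and Sema3f, which differed or responded in culture, were -0.21 ± 0.32, -0.03 ± 0.24, -0.27 ± 0.19, -0.26 ± 0.18 and -0.20 ± 0.14.

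**Figure D5:**
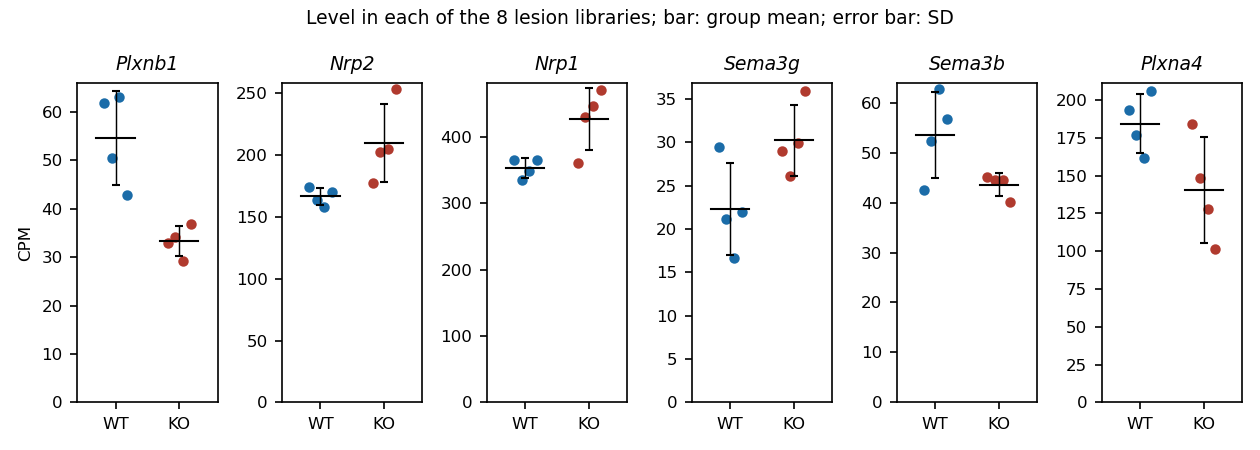
CPM in each of the 8 lesion libraries for the 5 members with the smallest p and for Plxna4, by genotype. Points are animals, bars are group means and error bars are SD. The KO animals lie below the WT animals for Plxnb1 and above them for Nrp2, and the genotypes overlap in the other 4 panels.

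The remaining members of the A and B plexins overlapped between genotypes in lesions. Plxna4 was at 184, 148, 128 and 102 CPM in KO and 194, 177, 162 and 206 CPM in WT (-0.39 ± 0.17, edgeR FDR = 0.324), and Plxnc1, a receptor on immune cells, was at 63.1, 75.6, 63.7 and 82.1 CPM and 46.4, 67.2, 55.5 and 64.0 CPM (0.29 ± 0.14, edgeR FDR = 0.374). Sema4d was at 55.7 to 102 CPM over all animals (0.30 ± 0.16). Cell type markers also moved between the genotypes: the sum of 16 macrophage genes was 5830 to 13400 CPM in KO and 3640 to 5550 CPM in WT, with all 16 estimates above 0. That of 12 contractile genes was 5290 to 7600 CPM in KO and 7390 to 11400 CPM in WT, with all 12 below 0, and that of 14 endothelial genes was 1900 to 2210 CPM and 1490 to 1850 CPM. Estimates above 0 numbered 2 of 13 for peripheral nerve genes, 9 of 12 for adventitial fibroblast genes and 9 of 10 for adipocyte genes. They numbered 1 of 7 for thymocyte, 0 of 10 for striated muscle, 6 of 11 for lymphocyte and 3 of 5 for blood genes. The adipocyte sum was 4330 to 6520 CPM in KO and 3340 to 5070 CPM in WT, and the nerve sum 471 to 1530 and 834 to 1650 CPM. No marker was called by edgeR, and the part of these cells in the members' levels was not tested.

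Of the pathway lists in lesions, 0 genes were called by edgeR. Of 35 genes of other guidance families 28 had an estimate below 0 (median -0.23), and of 36 signalling genes 25 did (median -0.13), against a median of -0.01 over all genes. The smallest p among them belonged to Slit3 (-0.44 ± 0.10), Rap1b (0.49 ± 0.11) and the macrophage receptor Trem2 (1.33 ± 0.27), each with an edgeR FDR of 0.17.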

How the data were processed

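RNA-seq counts were analysed for 8 lesion and 24 culture libraries. The authors deposited raw counts per gene, made with featureCounts 1.4.4 on exons of an mm9 annotation without regard to strand, per the file headers, with lesion counts of fragments and culture counts of single mates. Reads of an overlapping or antisense gene therefore cannot be told apart from a member's. CASAVA, STAR and DESeq2 are named in the submitters' processing notes.

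Counts were tested with edgeR 4.0.16 (R 4.3.3): filterByExpr by group (minimum count 10, minimum total 15), TMM, robust quasi-likelihood fits, 2-sided, Benjamini-Hochberg over all genes. The 8 culture groups shared 1 model, and lesions were fitted apart. A second rule also needed a 2-fold change. Standard errors came from the log2 change and its F statistic. The 17 comparisons comprise 1 between lesion genotypes, 12 between culture groups and 4 interactions.

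The members, lists and rules were chosen with earlier results of these data known. Every library's CPM is given for members called with at least a 4-fold change and 1 CPM, and for the 5 lowest p in lesions; interactions are named at a log2 value of at least 1; other pathway genes are the 4 with the lowest p per list; any further member was chosen after its values were seen. Replicate libraries differed at least 6.53 times more than counting noise (chi-square per degree of freedom). The fits were also run on simulated data with few changed genes. That setting is unlike the hypoxia and line comparisons, where most genes were called, so it does not test the scaling there.
Some items are not reported here.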

Additional observations from a re-analysis of the deposited data

Results flagged for a closer look

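In lesions 2 of 62 groups of 4 animals held an animal far from the others, where chance gives about 1 in 20: Sema3b in KO animal 4 (40.2 CPM, others 44.5 to 45.1) and Sema3e in KO animal 3 (11.3 CPM, others 8.33 to 8.82).

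The other results named here are differences between the lines in the same contrast, given as the log2 change in KO minus that in WT, each with an edgeR FDR under 0.05. For POVPC in normoxia they were Sema3a (1.08), Sema3e (1.01) and Sema6d (-1.34), and for POVPC in hypoxia Sema6c (-2.41), which was -1.97 (FDR = 0.022) without the WT library that held B-cell markers. For hypoxia under vehicle they were Sema4g (2.77), Sema6c (1.66), Plxnb1 (1.51), Sema5a (-1.19), Sema6d (-1.26), Sema3d (-1.27), Nrp2 (-2.35) and Sema6a (-3.27). The Sema6d value was -0.78 (FDR = 0.156) without KO vehicle hypoxia 2, and its call was also lost without KO vehicle normoxia 3 or KO vehicle hypoxia 1. For hypoxia under POVPC they were Sema4g (2.44), Sema6d (1.28), Sema5a (-1.10), Nrp1 (-1.46), Sema6a (-1.64), Sema3e (-1.73), Sema3d (-1.76) and Nrp2 (-1.89). For Sema6d the sign differed between the vehicle and the POVPC contrast. For Nrp2, Sema3d, Sema4g, Sema5a and Sema6a it was the same in both. Genotype and line cannot be told apart in any of these.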

How the results depend on the processing

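Of 232 called pairs of a member and a comparison, 187 kept their call under every alternative run (other scalings, filters, tools and fits, halved culture counts, and each library left out) and none reversed. Of the 131 called at 2-fold or more, 10 lost the call somewhere, and of 58 such hypoxia pairs 1 did. Of 246 pairs not called, 42 gained a call somewhere. DESeq2 called 1 member in lesions (edgeR 0) and 7 for POVPC in KO hypoxia (edgeR 3). With only the compared groups fitted, members called numbered 5 for POVPC in WT hypoxia (9 in the full model) and 2 for its interaction (4), and with the 3 shallowest libraries left out 3 and 2. Leaving out single libraries gave 5 to 9 members for POVPC in WT hypoxia (5 without WT vehicle hypoxia 1 or WT POVPC hypoxia 1), 0 to 3 in KO normoxia, 2 to 5 in KO hypoxia (5 without KO POVPC hypoxia 1) and 5 to 9 for the normoxia interaction (5 without WT vehicle normoxia 1 or WT POVPC normoxia 3). The cause of these shifts was not tested. Scaling by library size alone moved the median of all genes from -0.03 to -0.21 for hypoxia in WT under vehicle, and the split of members there from 5 higher and 16 lower to 4 and 18, and for POVPC in KO hypoxia from 1 and 2 to 1 and 1. Replicate numbers do not pair the libraries (no comparison had every pair's correlation above 0.1, from -0.644 to 0.183). With the number as a block, 8 members were called instead of 9 for POVPC in WT hypoxia and for the normoxia interaction, and the counts of the other 15 comparisons did not move. Members under about 1 CPM rest on few counts.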
